A study of Mus musculus with 12 samples.

Results

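The angiopoietin and Tie receptor axis of bone endothelial cells (BECs) was followed in mice of both sexes at 2 ages. It comprised 5 genes taken by name, the ligands Angpt1 and Angpt2, the receptors Tek (the gene of Tie2) and Tie1, and the receptor-type phosphatase Ptprb (also called VE-PTP), out of 37620 genes in the count table. All 5 had counts in each library and passed the filter on low counts in each comparison. The cells came from female and male c57/Bl6 mice aged 2 or 65 weeks, with 3 libraries for each sex and age and 12 in all. Per the labels the cells were taken fresh from the tibia and purified by endomucin, a surface sialomucin of capillary and venous endothelium. The labels name no treatment and no genetic change in any group, and the strain and the purification are given alike for all. The study's methods describe the isolation of BECs from tibiae and femurs, with magnetic beads that carry an endomucin antibody. Whether femurs entered these libraries was not resolved. Per the study's methods the 3 samples of best RNA quality were taken from each set. The labels do not say whether the libraries of a group came from separate animals, so p-values measure the spread between these libraries, which may be technical.

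Tie2 is a receptor tyrosine kinase of the endothelium that is kept active in resting vessels by angiopoietin 1, which is made mainly by the cells around vessels and by some blood-forming cells. Angiopoietin 2 is released by the endothelium itself and acts as a weaker, context-dependent ligand that loosens vessels during remodelling. Tie1 binds no angiopoietin by itself but pairs with Tie2 and tunes its signal, and VE-PTP removes phosphate from Tie2 and from the junction protein VE-cadherin. In bone marrow the axis is known for its part in vessel stability and in the niche of blood-forming stem cells.

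In GRCm39 the ligand gene Angpt1 (ENSMUSG00000022309) lies on the minus strand of chromosome 15 from 42288058 to 42540417. The other ligand gene, Angpt2 (ENSMUSG00000031465), lies on the minus strand of chromosome 8 from 18739202 to 18791603. Both receptor genes lie on chromosome 4, Tek (ENSMUSG00000006386) on the plus strand from 94627291 to 94763224 and Tie1 (ENSMUSG00000033191) on the minus strand from 118328385 to 118347261. Ptprb (ENSMUSG00000020154) lies on the plus strand of chromosome 10 from 116111428 to 116225440. Counts were summed over the exons of each gene, so they do not separate coding from untranslated sequence.

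Promoters of 2 of the 5 genes, Tek and Tie1, were matched in RefSeq on the older build GRCm38.p6, whose coordinates are not those of the paragraph above. They are shown because the promoter set used here held no other member, and each window runs from 250 bases before to 50 bases after the start. Capitals mark GGAA, the core of the motif read by ETS factors, or TTCC, the same letters on the other strand.
Tek, chr4:94739039-94739338, plus strand: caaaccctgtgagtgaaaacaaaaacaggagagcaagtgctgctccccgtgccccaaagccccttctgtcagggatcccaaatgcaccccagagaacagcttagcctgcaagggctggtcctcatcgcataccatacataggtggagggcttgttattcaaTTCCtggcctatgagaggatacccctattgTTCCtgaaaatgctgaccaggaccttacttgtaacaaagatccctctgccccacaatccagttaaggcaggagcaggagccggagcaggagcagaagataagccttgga
Tie1, chr4:118489800-118490099, minus strand: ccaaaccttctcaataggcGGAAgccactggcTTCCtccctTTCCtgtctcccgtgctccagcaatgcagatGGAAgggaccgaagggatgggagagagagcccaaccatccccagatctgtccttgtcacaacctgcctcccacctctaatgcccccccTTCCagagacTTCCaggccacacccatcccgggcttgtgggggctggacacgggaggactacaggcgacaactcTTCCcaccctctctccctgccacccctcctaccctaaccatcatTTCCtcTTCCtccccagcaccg
The Tie1 window held 9 matches to GGAA and the Tek window 2, against a median of 3 over 32851 promoters of the same length, of which 96% held at least 1. Of all promoters 98.4% held fewer matches than Tie1. AGATAA, the letters of GATA factors, occurred once in the Tek window, did not overlap GGAA there and was absent from the Tie1 window, and 11.2% of all promoters held it on either strand. Neither window held GTAAACA (forkhead factors, 3.65% of promoters), TATAAA (the TATA box, 13.6%) or GGGCGG (the GC box, 35.7%). These matches describe letters and not bound sites.

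Total counts ran from 35012947 to 44569600 in the 2-week libraries and from 26044743 to 34088694 in the 65-week libraries. In 2 libraries a trace of transcripts of the other sex was found. Male 65-week replicate 3 held 117 counts of Xist, a transcript of the inactive X chromosome, against 3 and 0 in the other male libraries of that age. Female 2-week replicate 3 held 12 counts of Ddx3y and 9 of Eif2s3y, both Y-linked. The cell type label was compared with 22 endothelial markers, which took a share of 0.403 to 0.720% of counts at 2 weeks and 0.0354 to 0.050% at 65 weeks, with none of them at 0 in either age. Cdh5, which encodes VE-cadherin, averaged 590 ± 159 CPM (counts per 1000000 counts of the library; mean ± SD, n = 3, here and for each group mean below) in young females and 737 ± 85.7 CPM in young males, against 11.8 ± 2.50 CPM and 12.7 ± 1.81 CPM in old ones. Ptprc, the common antigen of white blood cells, averaged 179 CPM in young females, 146 CPM in young males, 648 CPM in old females and 565 CPM in old males. A library of endomucin-purified cells thus held less endothelial and more white blood cell transcript at 65 weeks. In bulk RNA, fewer cells of a type and less RNA per cell cannot be told apart, and this holds for every age difference below.

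The first question was how the level of each member differed between the libraries of young and old mice. All 5 members fell with age in both sexes, the receptors and the phosphatase by more than 10-fold and Angpt1 by the least. Each was tested with edgeR's quasi-likelihood test across all genes, with Benjamini-Hochberg adjustment and a threshold of 0.05, and a gene past it is referred to as called. Of 15120 genes tested in females 29.5% were called lower at 65 weeks and 30.2% higher, and of 14959 genes in males 28.5% were called lower and 27% higher. Against that background 5 of 5 members were called lower in females and 5 of 5 in males. In both sexes all 3 libraries at 65 weeks lay below all 3 at 2 weeks for each of the 5 members, as for 41.6% of genes tested in females and 39.4% in males. The median log2 change of the members was -3.73 in females and -4.41 in males, against 0.0056 and 0.0080 over all genes tested. Scaling by library totals alone moved the median of all genes by -0.14 in females and -0.12 in males and moved the calls in females from 4568 higher and 4462 lower to 3668 higher and 5451 lower, and the members kept their direction under it.

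Angpt1, the activating ligand of Tie2, was measured in replicates 1 to 3 of the 2-week females at 82.8, 103 and 83.7 CPM and of the males at 121, 101 and 90.5 CPM. At 65 weeks it was at 45.8, 38.5 and 34.5 CPM in females and 31.4, 24.7 and 38.2 CPM in males. No old library reached the lowest young one, and the old libraries still held 666 to 1331 counts of this ligand. The log2 change with age was -1.05 ± 0.124 (SE) in females, 2.07-fold lower, with an adjusted p of 0.000188 by edgeR. In males it was -1.61 ± 0.171, 3.06-fold lower, with an adjusted p of 0.000152 by edgeR.

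Angpt2, the ligand of remodelling vessels, was the scarcest member by counts in each young library. Its levels in replicates 1 to 3 were 11.9, 14.9 and 9.35 CPM in 2-week females and 14.2, 13.4 and 14.8 CPM in 2-week males. At 65 weeks they were 0.998, 1.64 and 1.57 CPM in females and 2.34, 0.778 and 1.73 CPM in males. The young and old libraries lay far apart, but the old values rested on 21 to 64 counts a library and spread most among the males. The log2 change was -2.95 ± 0.253 in females (7.74-fold lower, adjusted p = 3.35e-05 by edgeR) and -3.01 ± 0.345 in males (8.03-fold lower, adjusted p = 0.000233).

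Tek, the angiopoietin receptor, was at 165, 206 and 119 CPM in 2-week females and 230.5, 178 and 218 CPM in 2-week males. In the old libraries it was at 8.37, 7.86 and 8.26 CPM in females and 6.70, 4.0 and 7.53 CPM in males. The old female libraries differed little from each other (8.16 ± 0.265 CPM) and all 3 lay above the old males. The log2 change with age was -4.18 ± 0.189 in females (18.2-fold lower, adjusted p = 2.51e-06 by edgeR) and -4.99 ± 0.241 in males (31.8-fold lower, adjusted p = 3.52e-06).

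Tie1, the partner receptor of Tie2, was at 253, 315 and 187 CPM in 2-week females and 368, 286 and 360 CPM in 2-week males. At 65 weeks it was at 19.8, 17.6 and 14.2 CPM in females and 16.03, 11.4 and 16.7 CPM in males. The sexes overlapped at both ages and the ages did not. Its log2 change was -3.73 ± 0.205 in females (13.3-fold lower, adjusted p = 4.67e-06 by edgeR) and -4.41 ± 0.187 in males (21.2-fold lower, adjusted p = 1.88e-06).

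Ptprb, the phosphatase that opposes Tie2, showed the steepest fall of the 5 in both sexes. It was at 182, 226 and 137 CPM in 2-week females and 231, 187 and 186 CPM in the young males. At 65 weeks it was at 4.34, 10.9 and 6.65 CPM in females and 4.94, 4.33 and 6.49 CPM in males. Old female replicate 2 stood above the other old libraries. The log2 change was -4.49 ± 0.338 in females (22.4-fold lower, adjusted p = 1.84e-05 by edgeR) and -5.15 ± 0.176 in males (35.5-fold lower, adjusted p = 1.04e-06). Among the young females, replicate 2 was highest and replicate 3 lowest for Angpt2, Tek, Tie1 and Ptprb alike, and among the old males replicate 2 was lowest for all 5 members. Without female 2-week replicate 3 the 5 members were still called lower in females, and without male 65-week replicate 3 the 5 were still called lower in males.

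**Figure D1:**
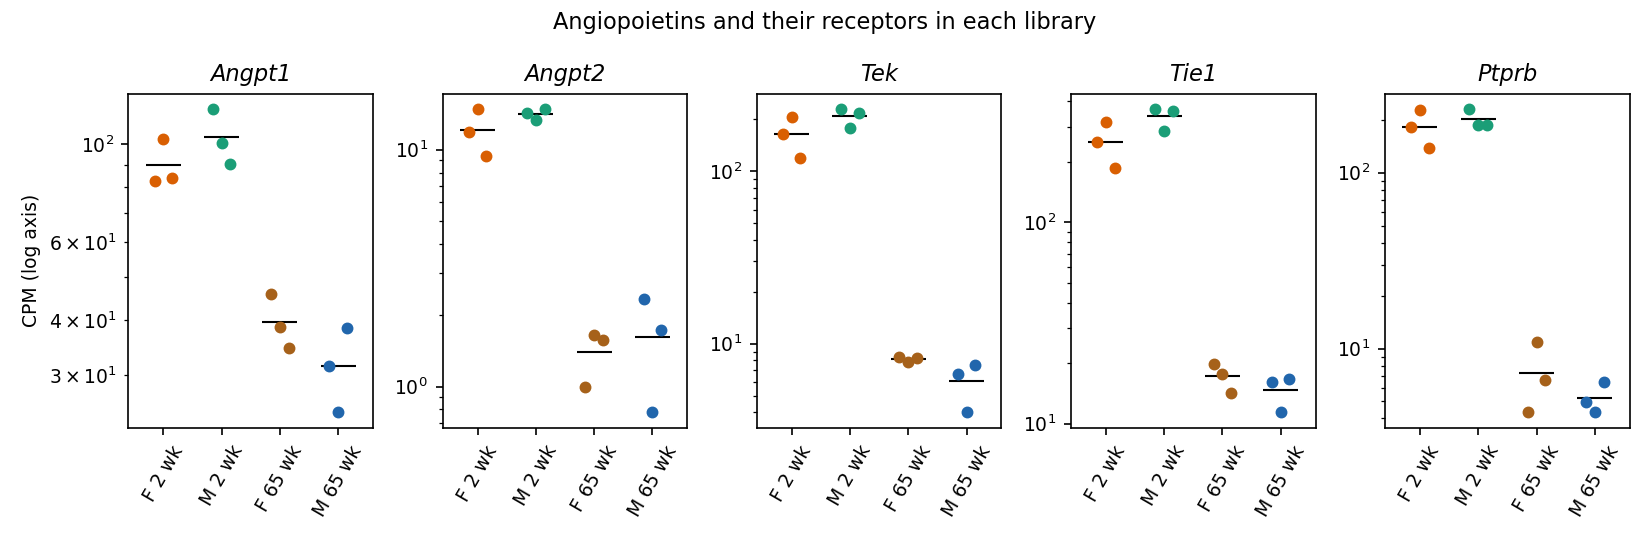
CPM of each member in each of the 12 libraries, by sex and age, on a log axis with 1 point a library and a line at each group mean. For all 5 genes the points at 65 weeks lie below the points at 2 weeks, and the gap is narrowest for Angpt1 (82.8 against 45.8 CPM between the nearest female libraries).

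Genes that mark other cells of bone moved with age as well, and their part in the fall of the members was not tested. All 22 endothelial markers were called lower in each sex, with a median log2 change of -4.26 in females and -4.51 in males. Kdr, the main VEGF receptor, changed by -5.08 and -5.35, Emcn, the gene of endomucin, by -4.73 and -5.01, and Pecam1, which platelets and white cells also express, by -1.77 and -3.24. Mural and stromal markers, from cells that can produce Angpt1, went from 0.736 to 0.119% of counts on average (n = 6 libraries an age; 11 of 12 genes called lower in each sex), with Cxcl12 the most abundant. Osteoblast markers, led by Col1a2, went from 0.838 to 0.0271% (10 of 10 called lower in each sex) and megakaryocyte markers, led by Ppbp, from 0.284 to 0.0343% (10 of 10). Stem and progenitor markers, led by Cd34, were at 0.0339 and 0.0163%, with 4 of 10 called higher and 4 lower in females and 1 higher and 4 lower in males. Markers of white blood cells were at higher shares at 65 weeks. Neutrophil genes, led by S100a9, were at 0.498 and 1.88% (9 of 10 called higher in females and 10 of 10 in males), and B cell genes, led by Ighm, at 0.0638 and 1.11% (8 of 10 in each sex). Monocyte and macrophage genes, led by Mrc1, were at 0.219 and 0.315% (9 and 7 of 10 called higher). Plasma cell genes, led by Jchain, were at 0.0372 and 0.126% (4 of 6 called higher and 1 lower in females, 3 higher and 2 lower in males), T and NK cell genes, led by Cd4, at 0.00821 and 0.0169% (9 of 10 called higher in females, 7 higher and 1 lower in males), and erythroid genes, led by Hbb-bs, at 4.09 and 4.28% (2 of 10 called higher in each sex). None of the listed genes was at 0 over all libraries of an age.

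The levels of the members were then compared with each other per exon length, as CPM per 1000 bases of the union of exons (RPKM, n = 6 libraries an age). At 2 weeks the receptor Tie1 was highest at 58.9 ± 13.7 RPKM, then Tek at 31.0 ± 6.81 and Angpt1 at 13.5 ± 2.00. Ptprb was at 13.4 ± 2.38 RPKM, within the range of Angpt1, and Angpt2 was lowest at 2.73 ± 0.446. At 65 weeks the order was Angpt1 at 4.94 ± 1.00, Tie1 at 3.19 ± 0.580, Tek at 1.19 ± 0.273, Ptprb at 0.438 ± 0.173 and Angpt2 at 0.315 ± 0.117 RPKM. Angpt1 thus went from the third place to the first. The libraries of Angpt1 and Tie1 overlapped at 65 weeks (3.43 to 6.38 against 2.27 to 3.96 RPKM), as did those of Ptprb and Angpt2, though Angpt1 exceeded Tie1 within each old library. With the longest transcript as the length the order was the same and Angpt1 at 2 weeks was at 21.5 RPKM.

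**Figure D2:**
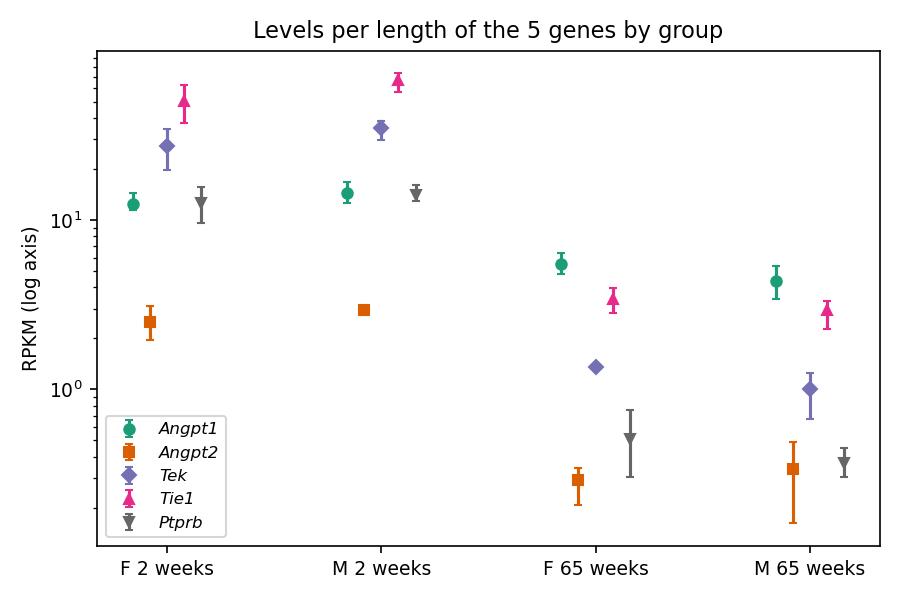
Level per exon length (RPKM, log axis) of the 5 members in the 4 groups of sex and age, with points for the mean of 3 libraries and lines from the lowest to the highest. In both sexes Tie1 leads at 2 weeks and Angpt1 at 65 weeks, and Angpt2 has the lowest mean at both ages (0.315 RPKM over the 6 old libraries).

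Ratios between members within a library do not depend on how the library is scaled. In bulk RNA they can still move with the mix of cells, whose part was not tested. Endothelial markers fell 14.3-fold in mean share with age, and mural and stromal markers 6.17-fold. These 10 ratios were added after the values had been seen, and each was tested by a two-sided exact permutation of age within sex, 400 relabelings, which cannot give a p below 0.005. The transcript ratio of the ligands moved toward Angpt1. Per exon length Angpt1 exceeded Angpt2 by 4.08 to 5.97 times in the young libraries and 8.94 to 30.6 times in the old (exact permutation p = 0.005). Angpt1 was at 0.347 to 0.587 of its receptor Tek in the young libraries and at 3.49 to 5.15 times Tek in the old (exact permutation p = 0.005). It went likewise from 0.175 to 0.312 of Tie1 to 1.36 to 1.69 times Tie1. Angpt2 went from 0.0773 to 0.0983 of Tek to 0.150 to 0.438 of it (exact permutation p = 0.005), so it remained below its receptor in each library. Between the receptors, Tek was at 0.505 to 0.546 of Tie1 in the young and 0.293 to 0.486 in the old libraries, a log2 change of -0.52 (exact permutation p = 0.005). In all, 9 of the 10 pairs reached p = 0.005, unadjusted, by exact permutation. The 10 pairs share 5 genes, and the share of other gene pairs that reach this p was not computed. The count is therefore no result about the axis. Tek over Ptprb was at 2.07 to 2.79 in the young and 1.72 to 4.60 in the old libraries (log2 change 0.27, exact permutation p = 0.245), and without female 65-week replicate 2, the library high in Ptprb, the p was 0.035.

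To set the members against other endothelial transcripts of the same library, their counts were divided by the summed counts of the 22 endothelial markers. Among the young libraries Tek varied little on this scale, from 29.6 to 32.0 counts per 1000 endothelial marker counts, a coefficient of variation of 3.01% against 22% in CPM. The same held for Tie1 (5.46 against 23.3%), Ptprb (7.77 against 17.8%) and Angpt2 (5.77 against 16.3%), and Angpt1 varied as much as in CPM (15.3 against 14.8%). On this scale these 4 genes thus varied less among the young libraries than in CPM. Mural and stromal markers also varied over those libraries, from 0.534 to 0.867% of counts. The members were not divided by them, so whether the spread went with endothelial transcript in particular was not tested.

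With age, Angpt1 went from 13.3 to 20.8 per 1000 endothelial marker counts in the young libraries to 69.7 to 106 in the old, 5.14-fold higher (log2 change 2.36, two-sided exact permutation p = 0.005, unadjusted over the 5 members as below). Angpt2 went from 1.98 to 2.32 to 2.20 to 6.54, with overlapping ranges (0.65, exact permutation p = 0.015). Both ligands thus fell less than the endothelial markers as a whole, which went down 14.3-fold in mean share. The median log2 change over all genes tested by edgeR was 0.0056 in females and 0.0080 in males. A gene at that median therefore rises more than Angpt1 on this scale, so a rise on it is not particular to the ligands. No share over all genes was computed for age on this scale. On this scale the receptors and the phosphatase were lower at 65 weeks. Tek was at 11.3 to 20.2 in the old libraries (-0.89, exact permutation p = 0.005), Tie1 went from 46.4 to 52.9 to 32.1 to 45.7 (-0.37, p = 0.005), and Ptprb from 27.4 to 34.1 to 10.02 to 21.7 (-1.16, p = 0.005). The fall of these 3 depended on the markers in the denominator: without Pecam1, Eng, Erg, S1pr1 and Vwf, which blood cells also express (a choice made after seeing the data), Tek changed by -0.05 (exact permutation p = 0.835), Ptprb by -0.33 (p = 0.07) and Tie1 rose by 0.47 (p = 0.005). Under the same choice Angpt1 rose by 3.20 and Angpt2 by 1.49, so the direction of the ligands held and that of Tie1 did not.

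**Figure D3:**
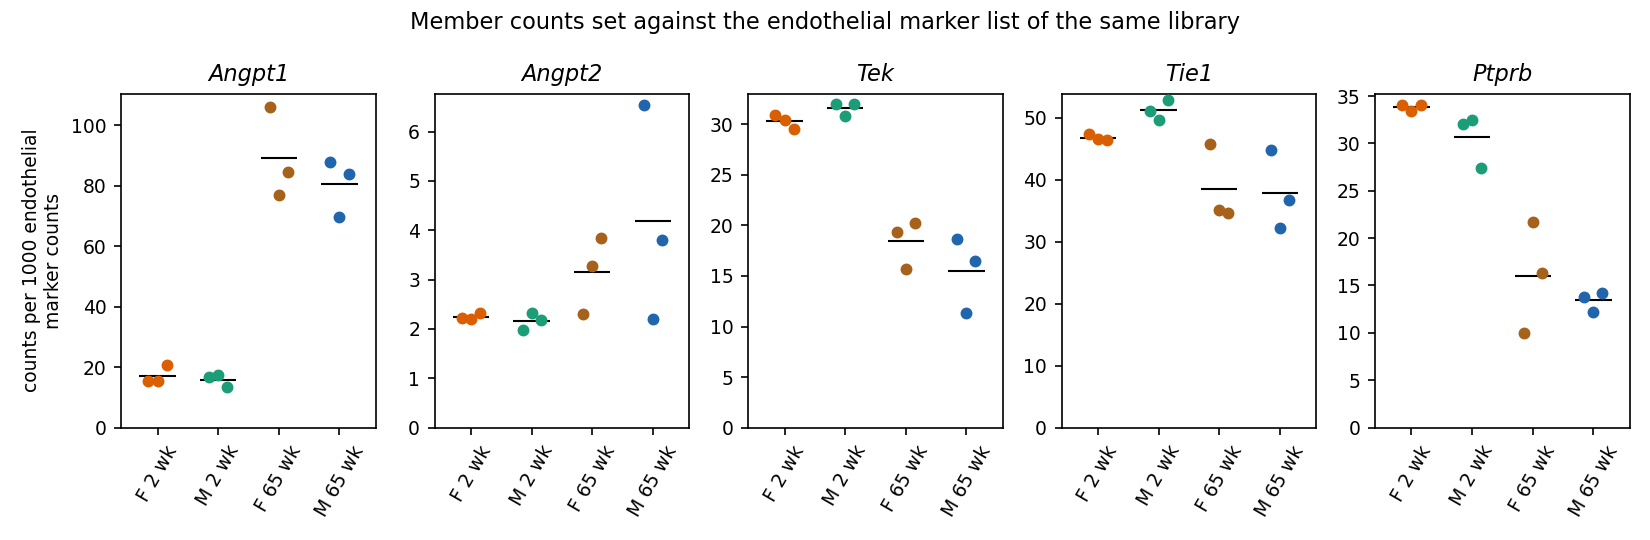
Counts of each member per 1000 counts of the 22 endothelial markers in the 12 libraries, by sex and age, on linear axes from 0 with 1 point a library and a line at each group mean. Angpt1 rises from at most 20.8 in the young to at least 69.7 in the old libraries, while Tek, Tie1 and Ptprb lie lower in the old ones. The markers themselves fell 14.3-fold in mean share, so a gene of unchanged CPM rises on this scale too. Without 5 markers shared with blood cells Tie1 rose (0.47), and neither Tek (-0.05) nor Ptprb (-0.33) reached an exact permutation p under 0.05.

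Other genes of the pathway were described from a list of 24, of which 23 were tested in each comparison and Lect2 was too low. In females 11 were called lower at 65 weeks and 8 higher, and in males 12 lower and 7 higher, with 4 not called in each sex. Over all genes tested the shares were 29.5% lower and 30.2% higher in females and 28.5% lower and 27% higher in males. The median log2 change of the list was -0.22 in females and -0.61 in males. The same direction was called in both sexes for 17 genes, 10 lower and 7 higher. The share of all genes called alike in both sexes was not computed, so this count is no result about the list. Among other ligands, Angpt4, named here after its values were seen, averaged 9.81 and 11.1 CPM in young females and males and 1.68 and 2.56 CPM in old ones, a log2 change of -2.41 ± 0.413 and -2.00 ± 0.233 (adjusted p = 0.00139 and 0.000255 by edgeR). Svep1, an extracellular matrix protein that binds Tie1, changed by -3.06 and -3.26.

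The largest fall in the list was that of Nos3, the endothelial nitric oxide synthase, from 26.1 and 31.2 CPM to 0.539 and 0.648 CPM, a log2 change of -5.44 and -5.47. Grb14, an adaptor of receptor tyrosine kinases, changed by -3.12 and -3.05, Itga5, the fibronectin receptor subunit that can bind angiopoietins, by -2.52 and -2.80, and the focal adhesion kinase Ptk2 by -2.21 and -2.55. Higher at 65 weeks were Bmx, a Tec family kinase of arterial endothelium and myeloid cells (1.33 and 1.88), the adaptors Grb7 (1.47 and 1.52) and Grb2 (0.86 and 0.85), and the catalytic subunits of PI3 kinase Pik3cb (0.35 and 0.67) and Pik3ca (0.56 and 0.40). Grb7 was below 1.2 CPM on average in each group, and its call in males was lost without any 1 of 4 libraries, male 2-week replicates 1 and 3 and male 65-week replicates 1 and 3 (log2 changes 1.23, 1.32, 1.55 and 1.41), and with a replicate block (1.66, adjusted p = 0.0531 by edgeR). The call of Pik3ca in males was lost without male 2-week replicate 2 (0.38) or 3 (0.36) and under scaling by library totals (0.29, adjusted p = 0.0829 by edgeR), and that of Pik3cb in females without female 2-week replicate 1 (0.29). Foxo1, the transcription factor held in check by Tie2 through Akt, was not called in either sex (0.25 and -0.33), nor was Akt1.

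**Figure D4:**
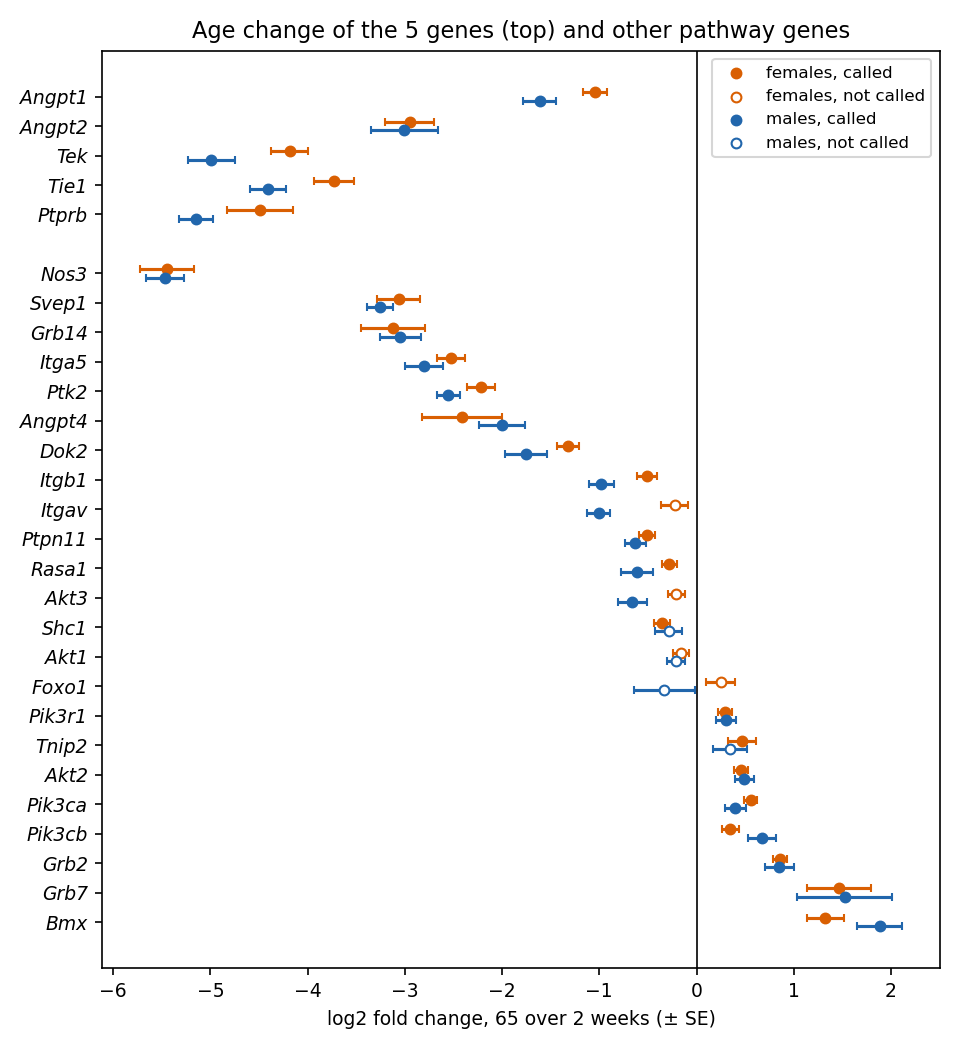
Log2 change from 2 to 65 weeks (edgeR, ± SE) of the 5 members, at the top, and of the 23 pathway genes tested, in females and males, with filled points for called genes. The members run from -1.05 for Angpt1 in females to -5.15 for Ptprb in males, all below 0, while the pathway genes run from -5.47 for Nos3 to 1.88 for Bmx, both in males.

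The second question was whether the members differed between the sexes at each age. At 2 weeks 0 of 5 members were called by edgeR, where 0.0332% of 15081 genes were called in either direction. DESeq2 called 0 members too, and 412 of 22283 genes. Tie1, the member with the largest difference, averaged 251 ± 64.1 CPM in the females against 338 ± 45 CPM in the males, a log2 difference of 0.41 male over female with a 95% interval from 0.014 to 0.81 (adjusted p = 0.275 by edgeR), the only one of 5 under 0.05 before adjustment, as were 17.8% of all genes tested. Tek differed by 0.34 (-0.07 to 0.75), Angpt2 by 0.22 (-0.12 to 0.56), Angpt1 by 0.19 (-0.09 to 0.48) and Ptprb by 0.14 (-0.24 to 0.52), with adjusted p from 0.334 to 0.647. In each of the 5 the libraries of the sexes overlapped, while in 9.97% of genes tested all males lay above all females. Without female 2-week replicate 3 the difference in Tie1 was 0.24 and that in Ptprb -0.02, and 0 of 5 had p under 0.05. The share of all genes under 0.05 in that fit was not computed.

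At 65 weeks edgeR called 0.042% of 14287 genes between the sexes and 0 of 5 members. Before adjustment 0 of 5 were under 0.05, against 10.4% of all genes. DESeq2 called 0 members and 358 of 20350 genes. Tek averaged 8.16 ± 0.265 CPM in the females against 6.07 ± 1.84 CPM in the males, and the males all lay below the females, as in 6.16% of genes tested. The log2 difference was -0.44 with a 95% interval from -1.0 to 0.12 (adjusted p = 0.607 by edgeR). Ptprb differed by -0.50 (-1.26 to 0.27), Angpt1 by -0.35 (-0.74 to 0.04), Tie1 by -0.24 (-0.68 to 0.20) and Angpt2 by 0.19 (-0.91 to 1.30). These intervals leave room for differences of more than 1.5-fold in all 5 members, and for Angpt2 in either direction. Without male 65-week replicate 3, which held Xist counts, the calls over all genes rose from 6 to 830, and still 0 of 5 members were called. Tek then differed by -0.59 (adjusted p = 0.233 by edgeR) and Angpt1 by -0.48 (adjusted p = 0.133), the only member under 0.05 before adjustment. The share of all genes under 0.05 in that fit was not computed.

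The third question was whether the age change differed between the sexes, tested as an interaction over the 12 libraries. None of 5 members was called by edgeR or by DESeq2, where edgeR called 0.00635% of 15747 genes and DESeq2 362 of 23039. The fall was nominally steeper in males by 0.80 for Tek (log2 interaction -0.80 ± 0.309, adjusted p = 0.332 by edgeR), by 0.67 for Tie1 (-0.67 ± 0.285, adjusted p = 0.386) and by 0.57 for Angpt1 (-0.57 ± 0.230, adjusted p = 0.362). These 3 of 5 were under 0.05 before adjustment, as were 11.9% of all genes tested. Ptprb gave -0.65 ± 0.392 and Angpt2 -0.05 ± 0.452, neither under 0.05. Without female 2-week replicate 3, Tek alone of the 5 stayed under 0.05 before adjustment (-0.61, adjusted p = 0.587 by edgeR). Without male 65-week replicate 3, Tek (-0.92, adjusted p = 0.106 by edgeR), Tie1 (-0.72, adjusted p = 0.166) and Angpt1 (-0.67, adjusted p = 0.0981) were under 0.05 before adjustment, and none was called. Calls over all genes then rose from 1 to 750. The share of all genes under 0.05 before adjustment was not computed for either fit, so these counts are no result about the members. Neutrophil markers differed between the old sexes as well, at 1.41% of counts in females and 2.34% in males, against 0.576 and 0.420% at 2 weeks. Of the 10 neutrophil genes 0 were called by edgeR at 65 weeks or in the interaction and 10 were under 0.05 before adjustment in each, with a median log2 difference of 0.75 male over female at 65 weeks and a median interaction of 1.22. Their part in the differences of the members was not tested.

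**Figure D5:**
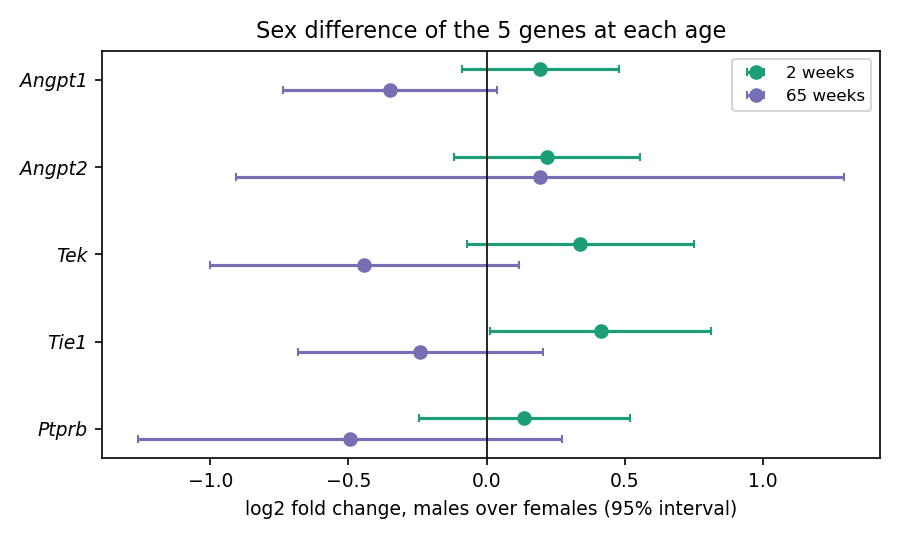
Log2 difference of males over females in the 5 members at 2 and 65 weeks from edgeR, with 95% intervals. At 2 weeks all 5 values are above 0, at 65 weeks 4 are below 0, and all intervals include 0 but that of Tie1 at 2 weeks (0.014 to 0.81), which did not pass adjustment.

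Per 1000 endothelial marker counts, the sexes at 2 weeks did not overlap for Tie1 (0.13 higher in males on the log2 scale) and Ptprb (0.15 lower, -0.15), each with a two-sided exact permutation p of 0.1, the smallest that 3 libraries against 3 allow. On this scale all males lay above all females in 1.02% of 15081 genes tested and below them in 11.9%. For the other members and at 65 weeks the exact permutation p ran from 0.2 to 0.9.

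Genes with the pattern most like each member were found by Pearson correlation of log2 CPM over the 12 libraries among 11902 genes, given with the correlation after removal of the 4 group means. These values describe 12 points that share library and depth and fall into 2 distant sets by age. Tek was most like Nid1, a basement membrane protein (0.999 over the libraries, 0.912 within groups), Il6st, Slco2a1 and Ly6c1, and Tie1 was most like Col18a1, the collagen that holds endostatin (0.999, 0.934 within groups), Il6st, Fam171a1 and Ltbp4. Ptprb was most like Fbn1 (0.998, 0.928), Adam12, Igfbp5 and Fap, genes known from stroma. Angpt2 was most like Maob (0.995, 0.953), Foxc1, Igfbp7 and Bicc1, and Angpt1 most like Fnbp1l (0.989, 0.878), Wdr19, Myzap and Slc30a4. None of the 20 places went to a gene of the endothelial list, which holds 22 genes against the 11902 compared. By its size alone few places would fall to it, so its absence does not set the members apart from endothelial genes. Between members, Tek and Tie1 went together most closely (0.998, 0.879 within groups). Angpt1 and Ptprb were at 0.954 over the libraries and 0.224 within groups, and Angpt1 and Angpt2 at 0.939 and 0.365.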

How the data were processed

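RNA of endomucin-purified BECs was sequenced with paired reads of 100 nt in 12 libraries (4 groups of 3, by the sex and age in the labels). The authors deposited a table of raw gene counts without normalisation. The labels' processing notes name TopHat2, HTSeq and mm9, whereas the study's methods name STAR, featureCounts and GRCm39, and which made the counts was not resolved. The use of strand is not given in the sources used here, so reads of a gene and an antisense partner cannot be told apart. The kit was for total RNA and the label names polyA RNA.

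Of 37620 Ensembl IDs, 31052 (99.287% of counts) were found in GENCODE M39, from which names, coordinates and union exon lengths were taken. Tests used edgeR 4.0.16 in R 4.3.3, with filterByExpr at its minimum count of 10, TMM, the quasi-likelihood F test and Benjamini-Hochberg adjustment, on the 6 libraries of each comparison and on all 12 for the interaction. Exact permutation tests used log2 of counts + 0.5. The alternatives were DESeq2 1.42.0, other scalings and filters, thinning, 1 model for all libraries, a block for the replicate number, and fits without each library. Counting precision follows from totals of 26044743 to 44569600, and replicates differed by more than sampling noise (chi-square over degrees of freedom 24.96 to 95.61). The fits were tested on simulated data.

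The members and gene lists were chosen with earlier results of these data known, so the counts over them are no independent support. By rule the genes named were the 5 members and the 5 largest falls and 5 largest rises of the pathway list called in both sexes. To these came Pecam1, Cdh5, Kdr and Emcn, and the most abundant gene of each other list. For each member the 4 protein-coding genes of highest correlation at a mean log2 CPM of 1 or more were named. Named outside this rule were Angpt4, Foxo1, Akt1 and Lect2 of the pathway list, Eng, Erg, S1pr1 and Vwf, and Xist, Ddx3y, Eif2s3y and Ptprc.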

Additional observations from a re-analysis of the deposited data

How the results depend on the processing

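The 5 members were called lower with age in both sexes, and 0 of 5 were called between sexes or in the interaction, under every alternative run. Leaving out 1 library gave ranges of log2 change with age from -1.16 to -0.96 (Angpt1), -3.17 to -2.76 (Angpt2), -4.43 to -4.04 (Tek), -3.97 to -3.60 (Tie1) and -4.91 to -4.22 (Ptprb) in females, and -1.76 to -1.48, -3.42 to -2.68, -5.15 to -4.77, -4.52 to -4.26 and -5.31 to -5.04 in males. Differences that did not pass the test changed sign: Ptprb between sexes at 2 weeks (-0.0244 to 0.3027 on leaving out 1 library), Angpt2 between sexes at 65 weeks (-0.2011 to 0.5277) and Angpt2 in the interaction (-0.4554 to 0.2785, and 0.0535 when libraries were thinned to the smallest). Per 1000 endothelial marker counts, Tie1 turned to 0.0561 with the mean log2 CPM of the markers (exact permutation p = 0.55) and to 0.4715 without 5 markers shared with blood cells, where 3 of 5 members had p under 0.05 against 5 of 5. The longest transcript moved Angpt1 to 21.5434 RPKM at 2 weeks. Library totals ended the call of Pik3ca in males (0.29). Replicate numbers did not pair the libraries (correlations of same-numbered libraries from -0.355 to 0.14, with 2, 2, 0 and 0 of 6 libraries closest to their own number in the 4 comparisons). With the replicate block 5 of 5 members were called in each sex and 0 between sexes, all-gene calls with age went from 9030 to 8269 in females and from 8298 to 7593 in males, Grb7 in males was no longer called (1.66), and no other call changed among the members and the 10 pathway genes that fell or rose most. All-gene calls between sexes at 2 weeks were 5, against 412 with DESeq2, 8 with all libraries in 1 model and 5 to 11 on leaving out 1. At 65 weeks they were 6, against 358 with DESeq2, 10 with library totals, 105 without a filter, 254 in 1 model and 5 to 830 on leaving out 1. In the interaction they were 1, against 362 with DESeq2, 7 without a filter, 0 with the block and 0 to 750 on leaving out 1, with the highest count without male 65-week replicate 3. The cause of these changes was not tested. At 65 weeks the 21 to 64 counts of Angpt2 limit its precision.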
